A study of Caenorhabditis elegans with 2 samples.

Results

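Tubulin isotype genes encode the alternative forms of the proteins that polymerise into microtubules. The 10 genes described here were chosen by name from the deposited count table. The rule for the choice used no measured values, but earlier results of these data were known. The genes are the alpha genes tba-1, tba-2, tba-4, tba-7 and tba-9, the beta genes tbb-1, tbb-2, tbb-4 and tbb-6, and the gamma gene tbg-1. All 10 were found among the 46748 gene identifiers of the table. The animals were whole Caenorhabditis elegans hermaphrodites labelled wild type, 5 days old and given OP50 bacteria that had been heat inactivated. The strain label leaves the strain unspecified, while the sample titles carry N2, the name of the laboratory wild type. OP50 is an Escherichia coli strain used as the usual laboratory food of this worm. Both libraries carry the same labels, so there was 1 group with 2 samples, and no contrast between treatments, ages or genotypes could be made. The series title sets the animals in a study of how the OP50 diet bears on lifespan. The labels do not say whether separate cultures were used, and the spread of the libraries may therefore be technical only.

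Alpha and beta tubulin join as a heterodimer, and heterodimers stack into the wall of the microtubule. Gamma tubulin sits in a ring complex that starts new microtubules, at the centrosome in dividing cells. In C. elegans, tba-1, tba-2, tbb-1 and tbb-2 supply the spindles of the germline and the early embryo. The genes tbb-4 and tba-9 are known from ciliated sensory neurons, where microtubules form the axoneme of the cilium. Several other isotypes are also known from neurons, among them mec-7 and mec-12, which build the microtubules of the touch receptor neurons. The group names germline and embryonic, and neuronal, follow such known roles. Which cells of the whole animals held the transcripts was not measured.

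Levels are given as CPM per kilobase, that is counts scaled to the library total (CPM) and divided by the exon length of the gene, which allows genes to be compared. Replicates 1 and 2 held 28164638 and 31271070 counts. Replicate numbers follow accession order and are names only. All 10 members had at least 10 counts in both libraries, the minimum used for detection. That minimum was met by 27.3% of all identifiers and by 62.5% of the 19641 protein-coding genes. Together the members took 0.719% of the counts in replicate 1 (95% Wilson interval 0.716% to 0.722%) and 0.70% in replicate 2 (0.697% to 0.703%). Intervals here and below cover counting error only.

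The beta genes of the germline and embryo were the highest and the lowest of their group of 4. tbb-2 (WBGene00006537, chromosome III, 4015910 to 4017627, minus strand, WBcel235) had 72719 counts in replicate 1 and 78930 in replicate 2. Its level was 1705 and 1667 CPM per kilobase, the highest of any tubulin gene in both libraries. It stood at place 41 among the 12268 detected protein-coding genes, ranked by mean CPM per kilobase. tbb-1 (WBGene00006536, chromosome III, 10740868 to 10742432, minus strand) had 29738 and 32404 counts, or 718 and 705 CPM per kilobase, and stood at place 156. Both genes encode beta tubulins used in the mitotic and meiotic spindles, and neither library's value for tbb-1 came near those of tbb-2. Per kilobase, tbb-2 exceeded tbb-1 by 2.37-fold in replicate 1 (95% exact interval 2.34 to 2.41) and by 2.37-fold in replicate 2 (2.33 to 2.4).

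The alpha genes of the germline and embryo lay between these. tba-2 (WBGene00006529, chromosome I, 12964674 to 12966795, minus strand) had 57995 and 62160 counts, or 1229 and 1186 CPM per kilobase, at place 88. tba-1 (WBGene00006528, chromosome I, 9785781 to 9787624, minus strand) had 37044 and 39811 counts, or 867 and 839 CPM per kilobase, at place 130. The values of these alpha genes did not overlap. tba-2 exceeded tba-1 by 1.42-fold in replicate 1 (95% exact interval 1.399 to 1.436) and by 1.41-fold in replicate 2 (1.396 to 1.431). The sources used here do not say how reads that fit more than 1 isotype were counted, so the split within each pair is uncertain. The deposited RPKM (reads per kilobase scaled to a read total, the authors' own unit) also imply a tba-2 gene 1.25 times as long as the exon length used, 2095 against 1676 bases. With lengths of that kind for every gene, tba-2 stood at 966 and tba-1 at 851 CPM per kilobase.

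Summed over the members, alpha transcripts amounted to 2116 and 2044 CPM per kilobase, and beta transcripts to 2432 and 2383. The ratio of alpha to beta was 0.864 ± 0.00851 (SD, n = 2), or 0.870 in replicate 1 and 0.858 in replicate 2. Within the alpha members, tba-2 contributed 58.05% ± 0.0369 and tba-1 contributed 41.02% ± 0.0517, and the remaining 3 genes contributed 0.931% ± 0.0149. Within the beta members, tbb-2 contributed 70.04% ± 0.110 and tbb-1 contributed 29.6% ± 0.0351, and the remaining 2 genes contributed 0.403% ± 0.0749. In each family, therefore, a pair of genes made up nearly the whole transcript level, and the share of the larger partner was higher among the beta genes. The SDs of these shares do not cover the uncertain split of reads within each pair or the gene length used. The 10 members and the other 6 tubulin genes of the table drew 96.8% ± 0.0711 of their summed level from tba-1, tba-2, tbb-1 and tbb-2.

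**Figure D1:**
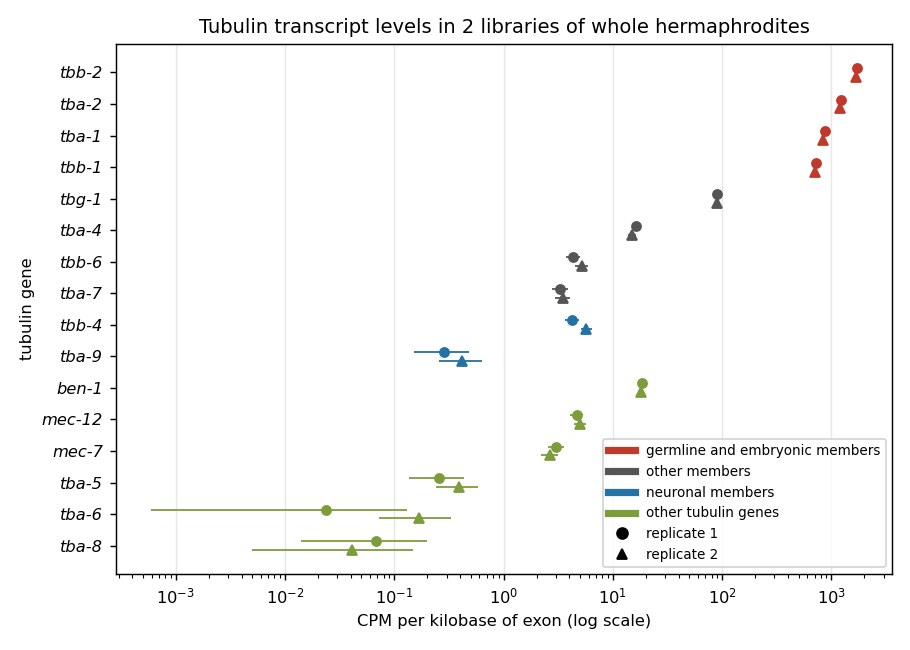
Level of each tubulin gene in each library, as CPM per kilobase of exon on a log axis, with the 10 members above and the other 6 tubulin genes below; circles are replicate 1, triangles are replicate 2 and bars are 95% exact Poisson intervals from the counts. The 4 germline and embryonic genes sit between 705 and 1705 CPM per kilobase, tbg-1 sits near 90, and every other gene is under 20.

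The neuronal isotypes were far lower. tbb-4 (WBGene00006538, chromosome X, 9434452 to 9436893, minus strand), a beta tubulin of ciliated sensory neurons, had 186 and 279 counts. That is 4.22 CPM per kilobase in replicate 1 (95% exact Poisson interval 3.64 to 4.87) and 5.70 in replicate 2 (5.05 to 6.41). It ranked at place 7477 of the 12268 genes. tba-9 (WBGene00006535, chromosome X, 3252800 to 3256269, plus strand), an alpha tubulin of the same kind of neuron, had 13 and 21 counts. Its level was 0.284 CPM per kilobase in replicate 1 (0.151 to 0.485) and 0.413 in replicate 2 (0.256 to 0.631), at place 11814. These counts are low enough that the interval of tba-9 spans a range of more than 2-fold in each library. In whole animals, fewer cells of a type and less RNA per cell cannot be told apart.

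The germline and embryonic genes summed to 4519 and 4397 CPM per kilobase in replicates 1 and 2, against 4.51 and 6.12 CPM per kilobase for tba-9 and tbb-4. Averaged over genes on a log2 scale with 0.1 added, the germline and embryonic genes stood at 10.04 ± 0.03 and the neuronal genes at 0.58 ± 0.30. The difference was 9.47 ± 0.33 (SD of the 2 libraries), 9.70 in replicate 1 and 9.24 in replicate 2. The members are not replicates of each other and were named with earlier results known, so no test was made of this difference. The nearest pair across the groups was tbb-1 and tbb-4. Per kilobase, tbb-1 exceeded tbb-4 by 170-fold in replicate 1 (95% exact interval 147 to 198) and by 124-fold in replicate 2 (110 to 140). The groups did not overlap in either library.

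Of the 5 other tubulin genes known from neurons, ben-1 was the only gene above tbb-4 in both libraries. ben-1, the beta tubulin through which benzimidazole drugs act, had 18.6 and 18.2 CPM per kilobase and was the highest of the tubulin genes outside the 10 members. Its level rested on the length used, at 28.5 CPM per kilobase with coding length and 27.1 with the length that the deposited RPKM imply. mec-12, the alpha tubulin of touch receptor neurons, had 4.67 and 5.00 CPM per kilobase, and its range lay inside that of tbb-4. mec-7, the beta tubulin of the same neurons, had 3.04 and 2.64 CPM per kilobase, under both values of tbb-4. tba-5, an alpha tubulin of ciliated neurons, had 0.254 and 0.387 CPM per kilobase from 13 and 22 counts, and overlapped tba-9. tba-6, another alpha tubulin of ciliated neurons, had 1 and 8 counts, and tba-8, also an alpha gene, had 3 and 2 counts, so neither met the detection minimum. With mec-7, mec-12, tba-5, tba-6 and ben-1 counted as neuronal beside tba-9 and tbb-4, the germline and embryonic sum was 145 and 135 times the neuronal sum.

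Whether the counting used strand is not stated, which may touch 5 of the 16 tubulin genes. Overlaps were taken from whole gene spans, introns included, and whether exons overlap was not measured. tba-5 overlaps rsd-6 on the opposite strand, a gene with 4565 and 5299 counts. tba-7 overlaps the last 85 bases of T28D6.3, which is on the other strand and had 94 and 87 counts. tba-6 overlaps F32H2.7 and F32H2.6 on the opposite strand, which had 23 and 22 counts together, more than tba-6 itself. mec-12 overlaps Y53G8B.1 (37 and 37 counts) and ben-1 overlaps C54C6.9 (0 counts in both libraries), also on the opposite strand. Reads from such overlaps cannot be assigned to a strand from these counts.

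**Figure D2:**
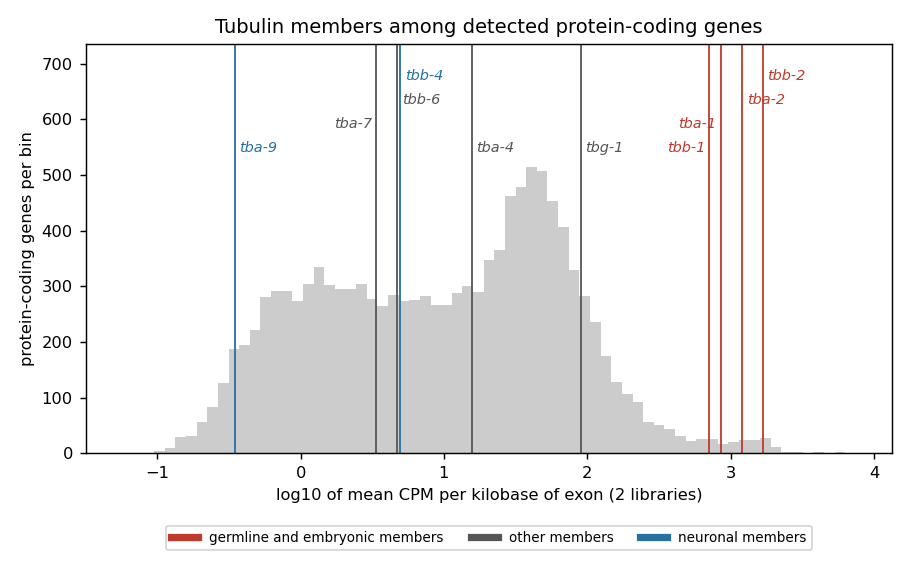
Histogram of the mean level of the 12268 detected protein-coding genes, as log10 of CPM per kilobase of exon averaged over 2 libraries, with the level of each of the 10 members as a vertical line. The germline and embryonic genes lie in the upper tail at places 41 to 156, while tbb-4, tbb-6, tba-7 and tba-9 lie under the median of 11.5 CPM per kilobase.

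Among the remaining alpha and beta members, tba-4 stood apart from the rest. tba-4 (WBGene00006530, chromosome II, 10918706 to 10920211, plus strand) had 648 and 658 counts, or 16.3 and 14.9 CPM per kilobase, at place 5599. Its level was a little above the median of the detected protein-coding genes and under both values of ben-1. tba-7 (WBGene00006533, chromosome III, 11368351 to 11371788, minus strand), a further alpha gene, had 133 and 155 counts, or 3.30 and 3.46 CPM per kilobase. tba-4 exceeded tba-7 by 4.95-fold in replicate 1 (95% exact interval 4.1 to 6.01) and by 4.31-fold in replicate 2 (3.62 to 5.17). Set against the alpha genes of the germline, tba-2 was 75.2 and 79.4 times tba-4 per kilobase.

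tbb-6 (WBGene00006539, chromosome V, 12261531 to 12263368, plus strand) is a beta tubulin gene whose promoter has been used to report mitochondrial stress signalling. It had 179 and 239 counts, or 4.29 CPM per kilobase in replicate 1 (95% exact Poisson interval 3.69 to 4.97) and 5.16 in replicate 2 (4.53 to 5.86). Its values fell inside the range of tbb-4, and the ratio of tbb-4 to tbb-6 was 0.983 in replicate 1 (95% exact interval 0.797 to 1.21) and 1.1 in replicate 2 (0.926 to 1.32). A difference between these beta genes was not detectable at this depth. Their order turned with the gene length used and with the library: tbb-6 ranked above tbb-4 in replicate 1 alone, with the deposited RPKM, and with the lengths these imply.

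Gamma tubulin was intermediate. tbg-1 (WBGene00006540, chromosome III, 9626536 to 9629154, minus strand) had 3743 and 4145 counts, or 90.04 and 89.8 CPM per kilobase, at place 1363. The beta members summed to 27.01 and 26.5 times the level of tbg-1. Transcripts for the other proteins of its complex were lower per kilobase. gip-2 and gip-1, which encode the partners that hold gamma tubulin in the complex, had 43.8 and 42.3, and 26.6 and 27.3 CPM per kilobase. mzt-1, which encodes a small subunit of the complex, had 44.1 and 51.7 CPM per kilobase. tbg-1 was 1.28 and 1.29 times the sum of gip-1 and gip-2 in replicates 1 and 2. The deposited RPKM imply a length of 1979 bases for tbg-1, against 1476 used here, and with lengths of that kind its level was 67.1 CPM per kilobase. The direction of its ratio to the sum of gip-1 and gip-2 then turned, to 0.959 with the implied lengths and 0.960 with the deposited RPKM, so it is uncertain which was higher.

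From the highest to the lowest mean, the members ran tbb-2, tba-2, tba-1, tbb-1, tbg-1, tba-4, tbb-4, tbb-6, tba-7 and tba-9. Of the 9 pairs of neighbours, tbb-4 and tbb-6 was the only pair whose library values overlapped. Among all 16 tubulin genes, mec-12 fell between tbb-4 and tbb-6 and overlapped both.

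By the Ensembl release 115 annotation, gene structure differed between the germline and embryonic members and the neuronal members tba-9 and tbb-4. The exons of tba-1, tba-2, tbb-1 and tbb-2 filled 82.3%, 79.0%, 93.9% and 88.1% of the gene's span, with 3 or 4 exons in the longest transcript. Those of tba-9 and tbb-4 filled 46.9% and 64.05%, with 9 and 7 exons. The lower exon share did not hold for every other tubulin gene known from neurons. The exons of mec-7 filled 85.3% of its span, inside the range of the germline and embryonic genes. Those of mec-12, ben-1, tba-5 and tba-6 filled less than that range. Each of these other genes had 5 or more exons. tba-4 had 3 exons filling 93.5% of its span, the same compact form as the germline genes at a far lower level. tba-7 and tbb-6 had 5 exons each, filling 41.6% and 80.5%, and tbg-1 had 6 exons filling 56.4% of its span. Coding lengths were alike, from 426 codons in tbb-6 to 456 in tba-9, with 450 in tbb-2 and 444 in tbb-4. tba-9 and tbb-4 were the only members on chromosome X, and tba-8 lay 18.6 kb from tbb-4. Of the other tubulin genes known from neurons, mec-7 was also on chromosome X, while mec-12, ben-1, tba-5 and tba-6 were not. These are descriptions of the 10 members and of some other tubulin genes, with no test.

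Between the libraries, no member differed by 2-fold or more. A two-sided exact binomial test was run on each of the 14397 genes whose counts summed to 10 or more, with Benjamini-Hochberg adjustment over all of them. It compares 2 libraries of the same group and holds counting noise only. Of the 14397 genes, 0.82% combined an adjusted p under 0.05 with a ratio of 2-fold or more, 0.229% higher and 0.59% lower in replicate 2, and 0 of the 10 members did. With no minimum on the ratio, 11.6% of all genes and 5 of the 10 members had an adjusted p under 0.05. The members were tbb-4, which was higher in replicate 2 (5.78% of all genes were), and the 4 germline and embryonic genes, which were lower in replicate 2 (5.8% of all genes were). With library totals as the scaling, the shares of all genes were 7.10% higher and 4.26% lower, and 4 members passed, as tbb-1 no longer did (exact binomial test, adjusted p = 0.123). The shares of all genes, here and below, cover every gene tested. They are not matched to the counts of the members or of the lists.

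tbb-4 had the widest ratio of these 5 genes, replicate 2 over replicate 1, with a log2 ratio of 0.42 (exact binomial test, adjusted p = 0.0232). The ratios of the germline and embryonic genes were small, at counts of 29738 and more per library. tba-2 had a log2 ratio of -0.07 (exact binomial test, adjusted p = 6.1e-14) and tbb-1 had -0.04 (adjusted p = 0.00286), with tba-1 at -0.06 and tbb-2 at -0.05. tba-9 had the largest ratio of any member, 0.50 on the log2 scale, but 34 counts in all, and did not pass (exact binomial test, p = 0.391, adjusted p = 0.725). tbg-1 had a log2 ratio of -0.02 (adjusted p = 0.827). The median over all genes tested was 0.0019, against -0.03 over the 10 members.

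Markers of the cells that could carry these transcripts were set beside the ratios. The 10 ciliated neuron genes (7 detected, none at 0) summed to 19.3 CPM per kilobase in replicate 1 and 18.7 in replicate 2, of which daf-19 alone gave 15.4 and 15.2. None of them had an adjusted p under 0.05 between the libraries, against 11.6% of all genes, while tbb-4 did. Their counts were often low, such as 18 and 15 for osm-5, against 186 and 279 for tbb-4. A ratio like that of tbb-4 could not have passed at counts that low. Unlike these, osm-1 (333 and 342 counts) and daf-19 (1360 and 1493) had more counts than tbb-4. Their log2 ratios were -0.13 and -0.03 (exact binomial test, adjusted p = 0.582 and 0.837). Whether the ratio of tbb-4 differs from those of ciliated neuron genes was not tested. The 10 germline and oocyte genes (10 detected) summed to 7480 and 7167 CPM per kilobase, and 5 of them were lower in replicate 2 at an adjusted p under 0.05, the same direction as the 4 germline and embryonic tubulins, against 5.8% of all genes. These 5 genes had 40391 or more counts per library, and their log2 ratios were small, from -0.13 to -0.06. At such counts small ratios pass, and the 5.8% is not matched for counts. The lower direction was not tested as particular to the germline. At that threshold, 5 of 8 body wall muscle genes and 4 of 8 epidermal genes were also lower in replicate 2, with none higher. Other lists were mixed, with 3 of 8 intestine genes higher and 3 lower, and 1 of 10 pan-neuronal genes higher and 2 lower. The part of these cell types in the tubulin ratios was not tested.

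**Figure D3:**
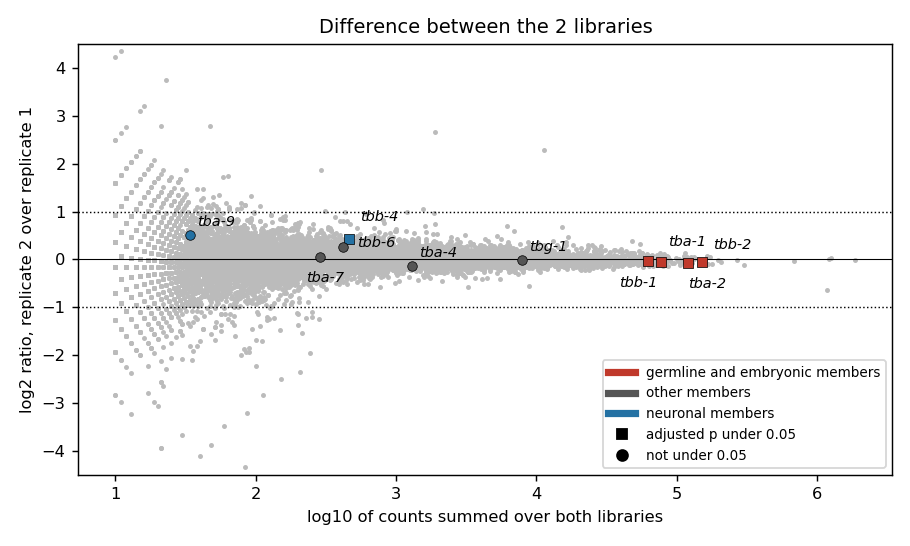
Log2 ratio of replicate 2 over replicate 1 against log10 of the counts summed over both libraries for 14397 genes (grey; 6 genes lie outside the plotted range), with the 10 members coloured by group and dotted lines at a 2-fold ratio. All 10 members lie inside the dotted lines, and the 5 drawn as squares had an adjusted p under 0.05 in the exact binomial test.

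The labelled tissue, whole hermaphrodites, was checked against marker genes. Sperm genes were scarce, with 3 of 8 detected and sums of 15.01 and 14.7 CPM per kilobase, of which spe-44 alone gave 13.4 and 13.6. Early embryonic zygotic genes had 7 of 10 detected and summed to 100.3 and 100.5 CPM per kilobase. lin-26, also listed for the epidermis, gave 70.4 and 68.9 of that, and the median of the list was 1.43. Pan-neuronal genes were detected in 10 of 10 cases and summed to 256 and 272 CPM per kilobase, with snb-1 giving 183 and 201 of that. The touch receptor genes, known from the neurons of mec-7 and mec-12, had 5 of 6 detected and summed to 2.27 and 2.69 CPM per kilobase. Intestine, body wall muscle and epidermis markers were detected in 8 of 8 cases each. Of the 8 epidermal genes, dpy-5, rol-6 and bli-1 were lower in replicate 2 by 2-fold or more at an adjusted p under 0.05. Of all genes tested, 0.59% were. The counts of these genes were small, at 82 and 28 for dpy-5, 43 and 20 for rol-6, and 52 and 19 for bli-1.

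Genes that nucleate, fold, bind and modify tubulin were then described from lists that were not chosen for how they moved, though earlier results were known. The median level of detected protein-coding genes was 11.5 CPM per kilobase, and that of all protein-coding genes 1.28. Of all 19641 protein-coding genes, detected or not, 6134 lay above 11.5. The 9 genes of the gamma-tubulin complex and centrosome were all detected, at a median of 132 CPM per kilobase, and 9 of 9 lay above 11.5. tpxl-1, which encodes the activator of the Aurora A kinase, had 192 and 182 CPM per kilobase, air-1, the kinase itself, had 181 and 186, and gip-1 was lowest. Between the libraries, 0 of these 9 genes passed with a 2-fold minimum, and without it 0 passed higher and 3 passed lower in replicate 2, against 5.78% and 5.8% of all genes tested.

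The chaperones and cofactors that fold tubulin were also abundant. All 19 listed genes were detected, at a median of 92.9 CPM per kilobase, and 18 lay above 11.5. The chaperonin genes cct-5 (293 and 295 CPM per kilobase) and cct-4 (207 and 205) were highest, and coel-1, which encodes a relative of a tubulin folding cofactor, was lowest (3.48 and 3.13, with a mean of 5.17 with coding length). None passed the library test with the 2-fold minimum, while without it 4 passed higher and 2 passed lower in replicate 2, against 5.78% and 5.8% of all genes.

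Microtubule binding and severing genes spread more widely. Of 20 matched genes 18 were detected, at a median of 35.9 CPM per kilobase over all 20, and 14 lay above 11.5. mei-2 and mei-1, the subunits of the katanin that severs microtubules in the meiotic spindle, were highest, at 217 and 217 and at 156 and 150 CPM per kilobase. ptl-1, the tau-like gene known from touch receptor neurons, was the lowest detected gene at 2.50 and 2.58 CPM per kilobase. With coding length in place of exon length its level was 7.03 CPM per kilobase. Between the libraries, 0 passed with the 2-fold minimum, and without it 0 passed higher and 5 passed lower in replicate 2, against the same 5.78% and 5.8% of all genes.

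Tubulin modifying enzymes had the lowest median of these lists, 2.43 CPM per kilobase over 10 matched genes, of which 7 were detected and 4 lay above 11.5. ttll-5 and ttll-12, genes of the tubulin tyrosine ligase-like family, were highest, at 71.9 and 74.7 and at 39.5 and 39.7 CPM per kilobase. ttll-15 was the lowest detected gene, at 0.689 and 0.741 CPM per kilobase. mec-17, an alpha tubulin acetyltransferase gene known from touch receptor neurons, had 2.44 and 3.13 CPM per kilobase. None passed the library test with or without the 2-fold minimum, among the 8 of them that had enough counts to be tested. Of all genes tested, 0.82% passed with the minimum and 11.6% without it, so 0 of 8 is near that share.

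**Figure D4:**
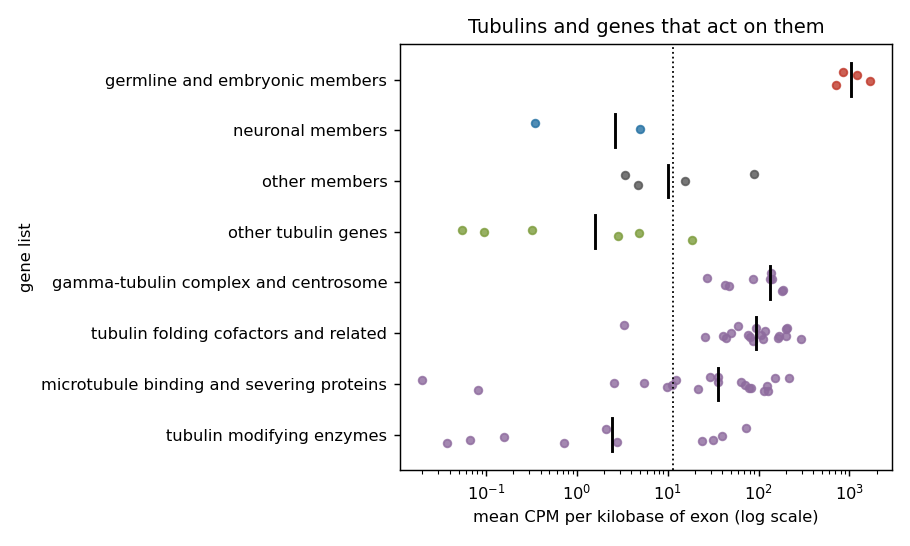
Mean level over 2 libraries of every matched gene in 8 lists, as CPM per kilobase of exon on a log axis, with the median of each list as a bar and the median of detected protein-coding genes, 11.5, as a dotted line; ebp-3, with 0 counts, is drawn at the left edge. The medians of the centrosome, folding and binding lists lie above the dotted line at 132, 92.9 and 35.9, and that of the modifying enzymes lies below it at 2.43. List medians include genes that were not detected, and the median of all protein-coding genes, detected or not, was 1.28.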

How the data were processed

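Whole-animal RNA was sequenced in 2 libraries of 1 group. Per the submitters' processing notes, which give tools without their roles, featureCounts 1.4.6-p4 and STAR 2.4.1d were used with build WBcel235. The annotation release, strand and counting options are not stated in these notes. The deposited table holds raw counts per gene, and the authors' second table holds RPKM, whose read total changed with the row, so levels were computed from the counts. CPM used each library's own total, and length was the union of exons in Ensembl release 115 of the same build, which held 46449 of the 46748 identifiers. Library sizes for the exact binomial test came from TMM (edgeR 4.0.16); DESeq2 1.42.0 size factors were an alternative, and scipy 1.17.1 gave the test. Log2 ratios used 0.5 added to each count. The test holds counting noise only.

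The members and lists were chosen with earlier results of these data known. All members were named; of each other list, the 2 highest and the lowest detected gene, every tubulin gene that is no member, and genes called between libraries. Others named (gip-2, mzt-1, mec-17, ebp-3, marker genes, the genes overlapping tubulin genes) were chosen after their values were seen. Genes hdac-6 and fign-1 had no match. Likeness of pattern across 2 libraries of 1 group was not computed. A chi-square over 14397 genes gave 8.82 per degree of freedom, more than sampling noise gives, and the libraries were counted as 2 samples.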

Additional observations from a re-analysis of the deposited data

How the results depend on the processing

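The order of the members was the same with the longest transcript or coding length, with TMM library sizes and without replicate 1, and tbb-4 and tbb-6 changed places otherwise. The difference between germline and embryonic and neuronal isotypes was 8.55 with a pseudocount of 1 and 8.76 with tbg-1 counted among the germline and embryonic genes, and ran from 9.24 to 9.70 without either replicate. The alpha to beta ratio was 0.928 with coding length and 0.822 with the lengths implied by the deposited RPKM, an alternative chosen after seeing the data, and ran from 0.858 to 0.870 without either replicate. Over these implied lengths the members' levels moved by 0.746 to 1.19 times. Without division by length, tbb-2 ranked 15, tba-2 ranked 20, tba-1 ranked 54 and tbb-1 ranked 83. At least 50 counts in both libraries left 9 members detected, without tba-9. The library test, with 118 calls, made 70 with at least 50 counts in the sum, 216 at 1.5-fold and 1667 with no fold minimum, which called 5 members (4 with library totals, a pair of settings joined after seeing the data); no other setting called any. No paired analysis was possible because there was 1 group. Uniquely assignable length and protein identity were not run, as no sequences were used here. With 2 libraries the SD is imprecise, and tba-9, with 13 and 21 counts, is limited by depth.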
